A study of Mus musculus with 12 samples.

Results

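The platelet-derived growth factor (PDGF) genes examined here are the 4 ligand genes Pdgfa, Pdgfb, Pdgfc and Pdgfd, the receptor genes Pdgfra and Pdgfrb, and Pdgfrl, which encodes a receptor-like protein. Each of these 7 genes, out of 19938 genes measured, was taken by its gene symbol from the array annotation, and each had a single transcript cluster, the set of probes that the array reads as 1 gene. RNA came from pools of early tumor islets of 8 week old Rip1Tag2 mice on a C57BL/6 background. In these mice the rat insulin promoter drives the SV40 T antigen in beta cells, and both groups carry this transgene. Islets were sorted by their appearance, and RNA of pooled islets was measured on 6 Affymetrix arrays for angiogenic and 6 for non angiogenic islets. The labels call each array a pool, and the study's legends speak of a pair of independent profiling experiments without saying which arrays belong to which. The sources used here give neither the mice and islets per pool nor whether arrays share a pool. The p-values treat the 6 arrays of a group as replicates, so they measure the spread between arrays, which may be technical, and are too small if arrays repeat the same pool.

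PDGFs are secreted dimers that bind tyrosine kinase receptors on the surface of mesenchymal cells. PDGF-B made by endothelial cells recruits pericytes, which carry PDGF receptor beta, to growing vessels, whereas PDGF receptor alpha marks fibroblasts and related mesenchymal cells. PDGF-A and PDGF-B are cleaved inside the producing cell, while PDGF-C and PDGF-D are released in a latent form that proteases activate outside the cell.

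All values are log2 levels from the RMA method, so a difference of 1 stands for a doubling. Levels of all genes correlated at 0.986 to 0.998 between arrays. Replicates 1 to 3 of each group nevertheless stood apart from replicates 4 to 6 on the leading principal component (41.5% of the variance), and whether these sets are the profiling experiments of the study is not stated. As each of these 2 sets has 3 arrays per group, the difference of each PDGF gene is also given by set. Islet hormone and beta cell genes were bright on all arrays, and the mean level of 13 endocrine genes was 12.04 to 12.16 in angiogenic and 12.19 to 12.32 in non angiogenic islets.

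Start regions of 4 of the 7 genes were found among the RefSeq windows of mouse build GRCm38.p6, which run over 250 bases before and 50 bases after an annotated start. The windows of Pdgfc, Pdgfd and Pdgfra are shown because these genes passed the test between the groups, and one of the 2 windows of Pdgfa because that gene did not pass the test. Capitals mark every match, on either strand, to 6 short motifs, namely the GC box GGGCGG, the TATA box TATAAA, the AP-1 site TGANTCA, the ETS core CCGGAA, the CAGA element CAGACA of SMAD proteins and the E-box CACGTG.
Pdgfc, chr3:81036166-81036465, plus strand: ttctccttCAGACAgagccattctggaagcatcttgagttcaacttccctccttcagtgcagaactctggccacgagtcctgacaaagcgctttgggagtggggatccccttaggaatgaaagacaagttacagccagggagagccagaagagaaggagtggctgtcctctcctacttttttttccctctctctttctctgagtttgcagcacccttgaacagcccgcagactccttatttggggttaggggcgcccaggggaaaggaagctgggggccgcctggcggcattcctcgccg
Pdgfd, chr9:6168236-6168535, plus strand: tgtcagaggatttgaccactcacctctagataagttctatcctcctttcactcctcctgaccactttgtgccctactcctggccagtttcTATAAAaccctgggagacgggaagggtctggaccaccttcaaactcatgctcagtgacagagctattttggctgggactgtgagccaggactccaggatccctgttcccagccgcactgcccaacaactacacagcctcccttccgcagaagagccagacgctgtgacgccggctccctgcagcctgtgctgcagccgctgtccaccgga
Pdgfra, chr5:75152001-75152300, plus strand: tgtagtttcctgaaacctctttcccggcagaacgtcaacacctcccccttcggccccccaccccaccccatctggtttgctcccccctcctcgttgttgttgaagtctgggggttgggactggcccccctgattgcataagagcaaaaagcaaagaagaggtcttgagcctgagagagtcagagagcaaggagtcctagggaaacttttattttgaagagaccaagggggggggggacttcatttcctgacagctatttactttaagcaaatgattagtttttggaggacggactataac
Pdgfa, chr5:138994895-138995194, minus strand: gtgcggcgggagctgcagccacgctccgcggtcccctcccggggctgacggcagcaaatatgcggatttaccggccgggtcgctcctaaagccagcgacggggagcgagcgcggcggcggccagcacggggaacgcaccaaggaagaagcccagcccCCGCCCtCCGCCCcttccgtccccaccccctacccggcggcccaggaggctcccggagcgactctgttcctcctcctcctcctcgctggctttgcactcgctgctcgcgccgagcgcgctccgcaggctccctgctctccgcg
The 4 windows shared a motif in no pair. The Pdgfa window had a GC content of 73.3% and 2 GC boxes, a motif found in 35.7% of all 32851 windows of this length. The Pdgfc window (55.0% GC) had 1 CAGA element at position -242 from the start, a motif of 21.0% of all windows. The Pdgfd window (56.7% GC) had 1 TATA box at position -160, a motif of 13.6% of all windows, and the Pdgfra window (51.0% GC) had no match to any of the 6. The AP-1 site, the ETS core and the E-box, which occur in 7.81%, 14.9% and 7.15% of all windows, had no match in the 4 windows shown, and none of the motifs overlapped another there.

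Of the 7 genes, 5 were up-regulated in angiogenic compared to non angiogenic islets, and none was lower. A gene is said here to pass the test where its p from limma, adjusted over all genes, is under 0.05. By this measure Pdgfb, Pdgfc, Pdgfd, Pdgfra and Pdgfrb rose, against 3.55% of all 19938 genes that were higher and 0.948% that were lower. Pdgfa and Pdgfrl did not pass. The count of lower members was 0 as well at an unadjusted p under 0.05 in limma, and by the unpaired t-test that the study's methods name (called the methods' t-test here), which gave 4 higher members. Over all genes, 7.76% were higher and 6.59% lower at an unadjusted p under 0.05, and 2.94% were higher and 0.903% lower by the methods' t-test. The median of their 7 log2 differences was 0.45, and that of all genes was -0.02. Since whole islets were measured, fewer or more cells of a type and less or more RNA per cell cannot be told apart in these values.

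**Figure D1:**
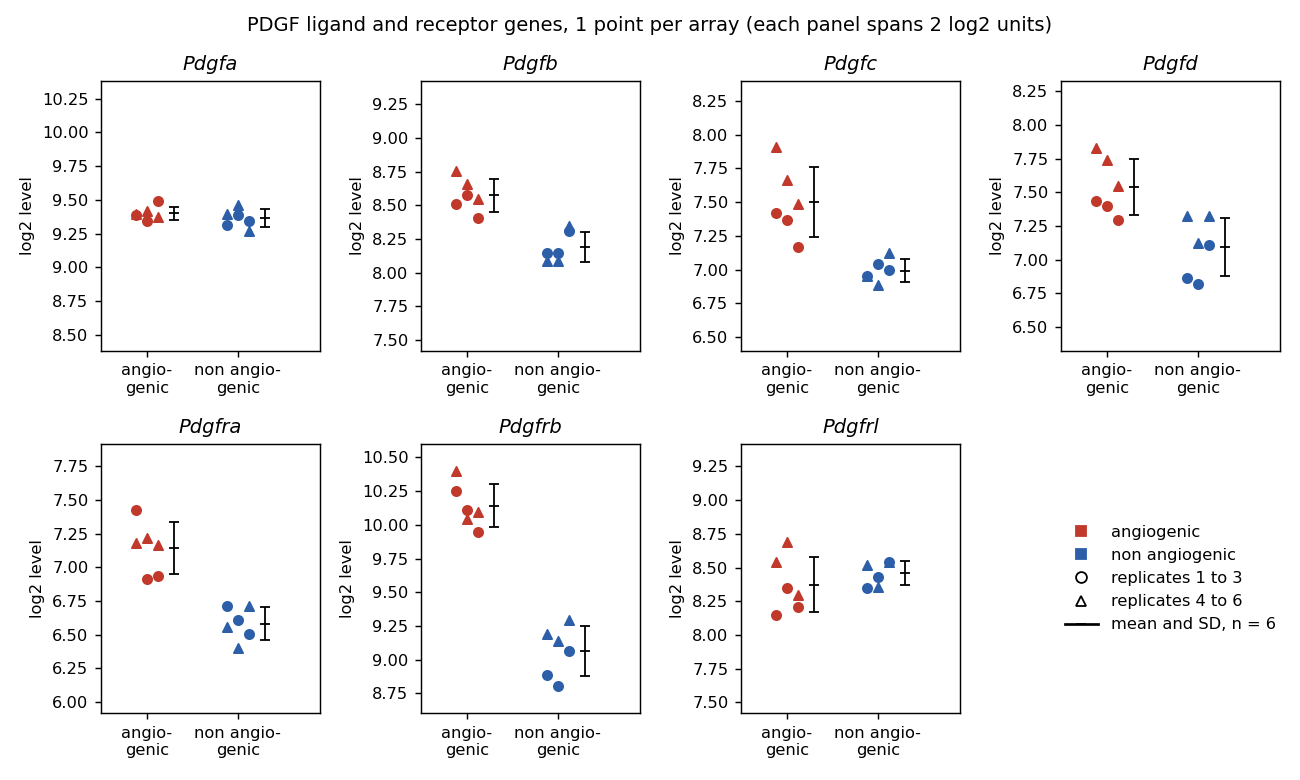
Log2 level of each PDGF gene on each array (vertical axis), with angiogenic islets (red) left of non angiogenic islets (blue), circles for replicates 1 to 3, triangles for replicates 4 to 6, and the mean and SD of 6 arrays as a bar. The arrays of the groups do not overlap for Pdgfb, Pdgfc, Pdgfra and Pdgfrb, meet narrowly for Pdgfd, and overlap widely for Pdgfa and Pdgfrl.

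Of the receptors, Pdgfrb, which the study lists as a pericyte marker, rose most. Its log2 level had a lowest, median and highest value of 9.95, 10.10 and 10.40 in angiogenic islets, against 8.81, 9.10 and 9.30 in non angiogenic islets. Every angiogenic array thus lay above every non angiogenic array, with a wide gap between the groups. The difference was 1.08 with a standard error of 0.09, or 2.11-fold with a 95% interval from 1.84 to 2.41 (adjusted p = 4.94e-06 from limma), and it ranked 32nd from the top among all genes.

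Pdgfra, the receptor gene that marks fibroblasts and their precursors, had levels of 6.91, 7.17 and 7.43 (lowest, median, highest) in angiogenic islets, against 6.40, 6.58 and 6.71 in non angiogenic islets. The groups did not overlap here either, but the gap was narrower, and angiogenic replicate 1 stood above the other 5 angiogenic arrays. The difference was 0.56 with a standard error of 0.09, or 1.47-fold with a 95% interval from 1.30 to 1.67 (adjusted p = 0.00101 from limma). The difference of Pdgfra was smaller than that of Pdgfrb. Taken within each array, Pdgfra minus Pdgfrb changed by -0.52 with a standard error of 0.12 between angiogenic and non angiogenic islets, and the arrays of the groups did not overlap in this ratio. Pdgfra lies below the median level of all genes (7.76) and Pdgfrb above it. RMA compresses weak signals, and the part of this in the smaller difference of Pdgfra was not tested.

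Pdgfrl encodes a secreted protein that resembles the ligand-binding part of the receptors and lacks a kinase. Its levels were 8.15, 8.32 and 8.69 in angiogenic islets and 8.35, 8.48 and 8.54 in non angiogenic islets. The angiogenic arrays spread on both sides of the non angiogenic arrays. The difference of -0.08, with a 95% interval from -0.26 to 0.10, did not pass (adjusted p = 0.76 from limma).

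Of the ligands, Pdgfb, which encodes the chain that binds both receptors, had levels of 8.40, 8.56 and 8.75 in angiogenic islets, against 8.09, 8.15 and 8.34 in non angiogenic islets. The lowest angiogenic array lay just above the highest non angiogenic arrays, which were replicates 3 and 6. The difference was 0.39 with a standard error of 0.07, or 1.31-fold with a 95% interval from 1.18 to 1.44 (adjusted p = 0.00258 from limma).

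Pdgfc, whose product binds mainly receptor alpha once its CUB domain has been cut off, had levels of 7.17, 7.45 and 7.91 in angiogenic islets, against 6.89, 6.97 and 7.12 in non angiogenic islets. Angiogenic arrays varied more, with an SD of 0.26 against 0.08 in non angiogenic arrays, and the highest were angiogenic replicates 4 and 5. The difference was 0.51 with a standard error of 0.10, or 1.42-fold with a 95% interval from 1.23 to 1.65 (adjusted p = 0.00642 from limma).

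Pdgfd, whose product binds mainly receptor beta, had levels of 7.29, 7.49 and 7.83 in angiogenic islets, against 6.82, 7.12 and 7.32 in non angiogenic islets. The groups met at their edges, as angiogenic replicate 3 lay just below non angiogenic replicates 4 and 6. The difference was 0.45 with a standard error of 0.11, or 1.36-fold with a 95% interval from 1.16 to 1.60 (adjusted p = 0.0285 from limma). This call did not pass by the methods' t-test (adjusted p = 0.087), nor in 7 of 12 fits that left out 1 array, namely angiogenic replicate 4, 5 or 6 or non angiogenic replicate 1, 2, 3 or 5 (adjusted p from 0.0503 to 0.0743 from limma). With the array set as a block its adjusted p from limma was 2.50e-04. In that fit the same 5 members passed, against 5.88% of all genes that were higher and 2.74% lower, and they also passed with the replicate number as a block, against 5.31% higher and 2.25% lower.

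Pdgfa, whose product binds receptor alpha, had almost the same levels in both groups, with 9.34, 9.39 and 9.49 in angiogenic islets and 9.27, 9.37 and 9.46 in non angiogenic islets. The arrays of the groups lay among each other. The difference of 0.04, with a 95% interval from -0.06 to 0.13, did not pass (adjusted p = 0.82 from limma), and the interval ends below the differences measured for the other 3 ligand genes. Taken within each array, Pdgfa minus Pdgfb changed by -0.35 with a standard error of 0.09, with some overlap between the groups.

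Across all 12 arrays the groups did not overlap for 4 of the 7 genes, with angiogenic islets above, as for 2.85% of all genes, and for 0 with angiogenic islets below, as for 0.923% of all genes. Within each set on its own, the 5 genes past the test were all higher in angiogenic islets with no overlap in either set, as for 4.89% of all genes (2.42% were lower in this way). In a single set such a gap is common, with 9.35% of all genes higher in replicates 1 to 3 and 10.7% in replicates 4 to 6. In replicates 1 to 3, Pdgfrb differed by 1.19, Pdgfra by 0.49, Pdgfd by 0.44, Pdgfc by 0.32 and Pdgfb by 0.29. In replicates 4 to 6 these differences were 0.97, 0.63, 0.45, 0.70 and 0.48 in the same order. The difference of Pdgfa was 0.06 within replicates 1 to 3, against 0.02 within replicates 4 to 6. Of the genes past the test, Pdgfc had the most unequal pair, and Pdgfd the most equal one.

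Fitted on replicates 1 to 3 alone, 2 members passed, Pdgfrb and Pdgfd, against 2.37% of all genes that were higher. Pdgfb, Pdgfc and Pdgfra did not pass there (adjusted p = 0.085, 0.075 and 0.094 from limma). Fitted on replicates 4 to 6 alone, all 5 passed, against 3.11% of all genes. These fits compare 3 with 3 arrays, and a gene that passed in 1 set was not thereby shown to differ between sets. Tested as an interaction of group and set, 0 of 7 members passed (lowest adjusted p = 0.74 from limma, and 0 by the unmoderated fit), against 0.00502% of all genes, and Pdgfc alone had an unadjusted p under 0.05, as had 6.41% of all genes. Pdgfrl was the only member whose sign turned between sets, at -0.20 in replicates 1 to 3 and 0.04 in replicates 4 to 6, and it passed in neither. In replicates 1 to 3 its angiogenic arrays all lay below the non angiogenic ones, as did 13.0% of all genes there (10.9% in replicates 4 to 6). The other 6 members were higher in angiogenic islets in both sets by sign, as were 23.8% of all genes, while 36.9% were lower in both.

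The sets also differed in level for Pdgfd, irrespective of group. With group in the model, replicates 4 to 6 lay 0.33 above replicates 1 to 3, with a standard error of 0.06 (adjusted p = 0.00137 from limma), as 18.0% of all genes were higher and 18.8% lower in replicates 4 to 6. The other 6 members did not pass this test, with differences from 0.01 for Pdgfa to 0.18 for Pdgfrb.

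**Figure D2:**
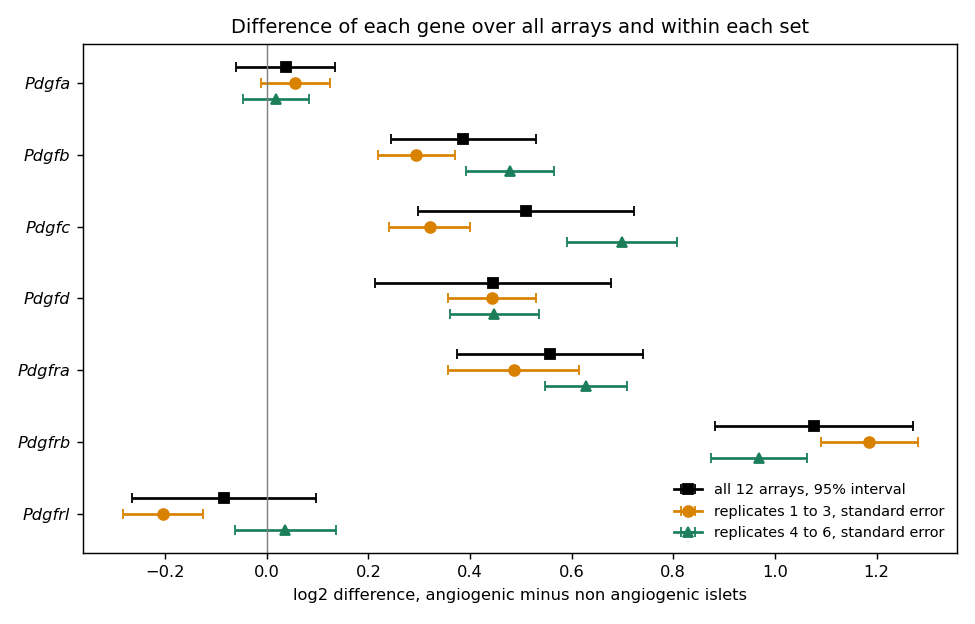
Log2 difference of each PDGF gene (horizontal axis), angiogenic minus non angiogenic islets, over all 12 arrays with a 95% interval (black squares) and within replicates 1 to 3 (orange circles) and replicates 4 to 6 (green triangles) with the standard error. Differences of 5 genes lie above 0 in both sets, that of Pdgfa is near 0, and that of Pdgfrl is -0.20 and 0.04 in the sets.

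The position of the 7 genes among all genes ranged widely. The difference of Pdgfrb exceeded that of 99.8% of all genes, and those of Pdgfra, Pdgfc, Pdgfd and Pdgfb exceeded that of 98.9%, 98.7%, 98.2% and 97.7%. Pdgfa stood at 74.4% and Pdgfrl at 21.3%. Pdgfc, Pdgfd and Pdgfra lay below the median level of all genes (7.76) by their mean over all arrays. They have no value in the fit that left out genes below this median, where 2 of the remaining 4 members passed.

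**Figure D3:**
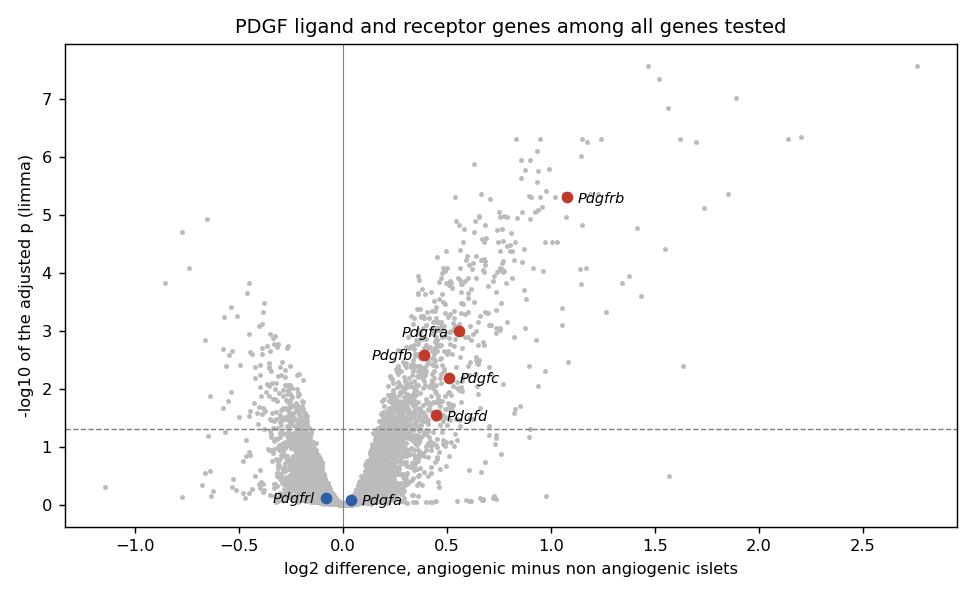
Log2 difference, angiogenic minus non angiogenic islets (horizontal axis), against -log10 of the adjusted p from limma (vertical axis) for 19938 genes (grey), with the PDGF genes in red where they passed the threshold of 0.05 (dashed line) and in blue where they did not. Pdgfrb, at 1.08, stands apart from the group of Pdgfb, Pdgfc, Pdgfd and Pdgfra between 0.39 and 0.56.

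Genes that handle PDGF outside the cell were higher in part, in a list that also held the proprotein convertase genes Furin, Pcsk5 and Pcsk6. Of this list, 10 genes for activating proteases, co-receptors and binding proteins were measured. In limma 4 passed the test as higher and 0 as lower, against 3.55% and 0.948% of all genes. At an unadjusted p under 0.05 the counts were 7 and 2, against 7.76% and 6.59% of all genes. By the methods' t-test after adjustment they were 4 and 0, against 2.94% and 0.903% of all genes. The median difference of the 10 genes was 0.32. Sparc, which encodes a matrix protein that binds PDGF-B, had means of 12.62 in angiogenic and 11.75 in non angiogenic islets, 1.83-fold higher (adjusted p = 1.66e-06 from limma). Lrp1, the gene of an endocytic co-receptor of PDGF receptor beta, was 1.51-fold higher (adjusted p = 6.09e-05), and Cspg4, which encodes the pericyte proteoglycan NG2 that binds PDGF-AA and is also 1 of the pericyte markers, 1.48-fold (adjusted p = 3.37e-04), both from limma.

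Differences of the protease genes of this group had both signs, and only that of Plat passed the test in limma without a block. Plat, which encodes the protease t-PA that activates PDGF-C, was 1.37-fold higher (difference 0.46, standard error 0.08, adjusted p = 0.00183 from limma). Plau, which encodes urokinase, an activator of PDGF-D, differed by 0.36 (standard error 0.10), with means of 7.87 in angiogenic and 7.51 in non angiogenic islets. Its adjusted p from limma was 0.053, and 0.022 with the array set as a block. St14, which encodes matriptase, another protease that can cleave the latent ligands, went the other way at -0.21 (standard error 0.07), with means of 7.97 in angiogenic and 8.18 in non angiogenic islets. It did not pass (unadjusted p = 0.013, adjusted p = 0.16 from limma), but did with the replicate number as a block (adjusted p = 0.049 from limma). Of the proprotein convertase genes, Pcsk6 differed by -0.13 (adjusted p = 0.22), Furin by 0.02 (adjusted p = 0.93) and Pcsk5 by 0.20 (adjusted p = 0.12, and 0.017 with the array set as a block, from limma). With the set as a block, 7 of the 10 genes passed, Plau, Pcsk5 and the co-receptor gene Nrp1 (adjusted p = 2.77e-04 from limma, against 0.065 without the block) among them. With this block 5.88% of all genes were higher and 2.74% lower.

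For the genes that act inside the cell the share past the test was near that of all genes. Of 30 measured genes of signal transducers of the receptors, among them adaptors, PI 3-kinase subunits, phosphatases and STATs, 1 passed the test in limma as higher (3.33%, against 3.55% of all genes) and 0 as lower. At an unadjusted p under 0.05 these counts were 3 and 2, against 7.76% and 6.59% of all genes. By the methods' t-test after adjustment they were 0 and 0, against 2.94% and 0.903% of all genes. The median difference of the 30 genes was -0.06. The one gene was Fyn, a Src family kinase gene, with means of 8.92 in angiogenic and 8.48 in non angiogenic islets (1.35-fold, adjusted p = 0.017 from limma, and 0.059 by the methods' t-test). Next came the adaptor gene Gab1, with a difference of 0.22 that did not pass (adjusted p = 0.15 from limma).

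Of 14 genes known to be induced early by PDGF in mouse fibroblasts, 3 passed the test in limma as higher and 0 as lower. The shares of all genes were 3.55% and 0.948%. At an unadjusted p under 0.05 the counts were 4 and 0, against 7.76% and 6.59% of all genes. By the methods' t-test after adjustment they were 2 and 0, against 2.94% and 0.903% of all genes. The median difference of the 14 genes was 0.01. The chemokine genes Ccl2 and Ccl7 were 1.45-fold and 1.31-fold higher (adjusted p = 0.00138 and 0.00435 from limma). The transcription factor gene Egr2 was 1.23-fold higher (adjusted p = 0.046), a call kept only in 2 of 12 fits without 1 array, those without angiogenic replicate 2 and without non angiogenic replicate 4 (adjusted p up to 0.12 in the others, from limma). Fosl1, an AP-1 subunit gene, had the largest difference of those that did not pass, at -0.21 (adjusted p = 0.63).

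The class III receptor tyrosine kinases related to the PDGF receptors and their ligands made 7 genes in all. Of these, 2 passed the test in limma as higher and 0 as lower, against 3.55% and 0.948% of all genes. At an unadjusted p under 0.05 the counts were 3 and 1, against 7.76% and 6.59% of all genes. By the methods' t-test after adjustment they were 2 and 0, against 2.94% and 0.903% of all genes. The median difference of the 7 genes was 0.10. Csf1r, the receptor gene of macrophages that also counts among the macrophage markers, was 1.48-fold higher (adjusted p = 4.06e-05), and Kitl, the ligand gene of Kit, 1.24-fold (adjusted p = 0.025). The call of Kitl was lost by the methods' t-test (adjusted p = 0.059) and in 5 of 12 fits, without angiogenic replicate 2, 3, 4 or 5 or non angiogenic replicate 6 (adjusted p up to 0.065 from limma). Il34, a ligand gene of Csf1r, had a difference of 0.18 and did not pass (adjusted p = 0.059 from limma), although its groups did not overlap. It passed with the array set as a block (adjusted p = 0.026 from limma) and by the methods' t-test (adjusted p = 0.040). It also passed without non angiogenic replicate 1 (adjusted p = 0.041 from limma). With the set as a block 3 genes of this group were higher, against 5.88% of all genes.

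**Figure D4:**
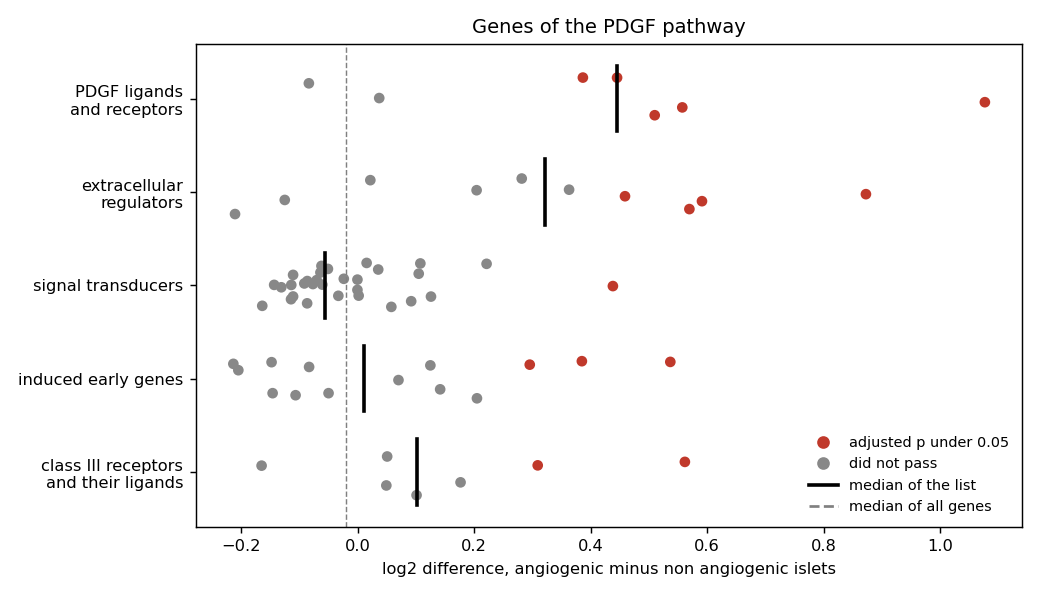
Log2 difference, angiogenic minus non angiogenic islets (horizontal axis), of the genes of 5 groups of the PDGF pathway, 1 point per gene, red where it passed the test and grey otherwise, with the median of each group (black) and of all genes (dashed). The medians are 0.45 for the ligands and receptors and 0.32 for the extracellular regulators, and lie between -0.06 and 0.10 for the other 3 groups.

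Markers of cells that are known to express PDGF genes lay higher in angiogenic islets too. In limma, 10 of 15 pericyte and smooth muscle markers and 9 of 12 fibroblast and stellate cell markers passed the test as higher. So did 12 of 14 endothelial markers and 8 of 12 macrophage markers, against 3.55% of all genes. The count of lower markers was 0 in each of these lists, against 0.948% of all genes. Without adjustment, at p under 0.05 in limma, it was 1 for the pericyte markers and 0 for the others, against 6.59% of all genes. The methods' t-test gave 0 lower markers in each list, against 0.903% of all genes. The mean level of the pericyte markers was 8.18 to 8.46 in angiogenic and 7.74 to 7.86 in non angiogenic islets. That of the fibroblast markers was 8.82 to 9.07 in angiogenic and 7.76 to 8.19 in non angiogenic islets. For the endothelial markers it was 9.43 to 9.60 in angiogenic and 8.96 to 9.13 in non angiogenic islets, and for the macrophage markers 8.33 to 8.70 in angiogenic and 7.95 to 8.18 in non angiogenic islets. None of these 4 pairs of ranges overlaps. The contractile genes Acta2 and Tagln led the pericyte markers (3.34-fold and 1.82-fold), the matrix genes Postn and Col1a1 the fibroblast markers (3.07-fold and 2.95-fold), Cd93 and the VE-cadherin gene Cdh5 the endothelial markers (1.78-fold and 1.70-fold), and the F4/80 gene Adgre1 and the mannose receptor gene Mrc1 the macrophage markers (1.57-fold and 1.52-fold). The part of these cell types in the PDGF differences was not tested.

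Relative to these markers on the same array, the 7 genes did not move alike. The difference of Pdgfrb exceeded that of the mean of the pericyte markers by 0.56 with a standard error of 0.08 (0.67 in replicates 1 to 3 and 0.44 in replicates 4 to 6), and that of the endothelial markers by 0.61 with a standard error of 0.10, with no overlap between the groups in either ratio. Against the fibroblast markers it differed by 0.15 with a standard error of 0.05, with overlap. The differences of single pericyte markers ran from -0.15 to 1.74, the highest being that of Acta2, against 1.08 for Pdgfrb. The comparison with their mean thus does not hold for each marker. Pdgfra differed from the pericyte markers by 0.04 with a standard error of 0.10, and from the fibroblast markers by -0.37 with a standard error of 0.12 and overlap between the groups. Pdgfb differed from the endothelial markers by -0.08 with a standard error of 0.06 and overlap. It differed from the pericyte markers by -0.13 with overlap, and from the fibroblast markers by -0.54 with no overlap. Pdgfc differed by -0.41 from the fibroblast, -0.01 from the pericyte and 0.04 from the endothelial markers, each with overlap. For Pdgfd these values were -0.48, -0.07 and -0.02, with no overlap against the fibroblast markers only. Pdgfa and Pdgfrl lay lower relative to all 3 lists with no overlap between the groups, at -0.43 and -0.55 against the endothelial markers. The means of these lists themselves rose by 0.47 to 0.92, so a gene with an unchanged level falls relative to them. The share of all genes without overlap in such ratios was not counted. These ratios were not tested, and a mean of several markers varies less than a single gene. The levels of Pdgfc, Pdgfd and Pdgfra, and of some of the markers, are also low, where differences can be compressed.

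**Figure D5:**
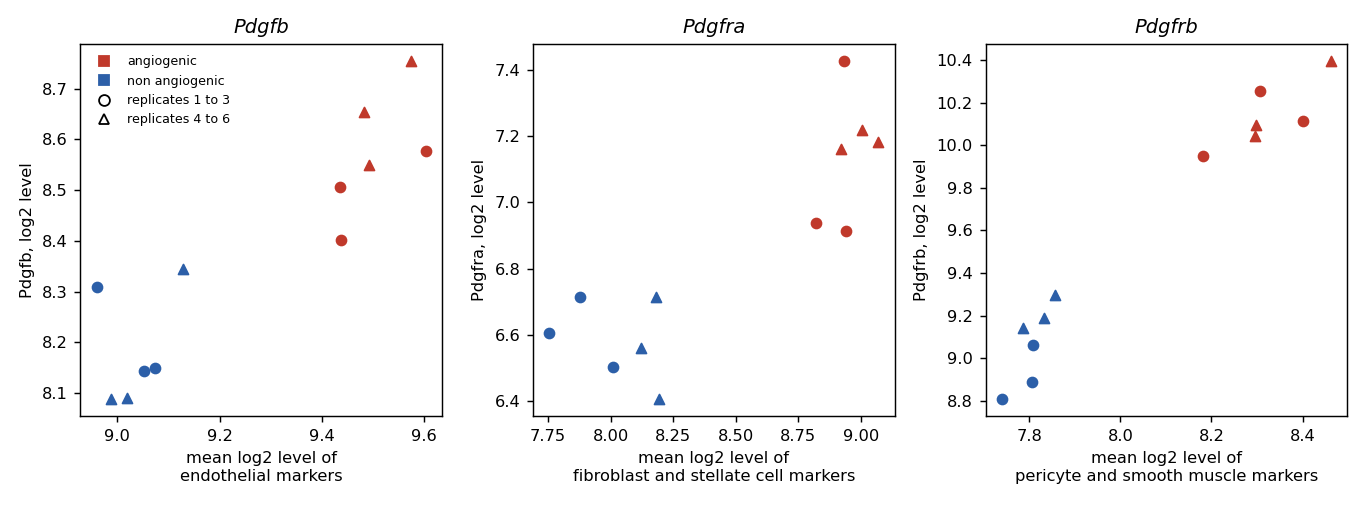
Log2 level (vertical axis) of Pdgfb, Pdgfra and Pdgfrb on each of 12 arrays against the mean log2 level of endothelial, fibroblast and stellate cell, and pericyte and smooth muscle markers (horizontal axis), with angiogenic islets in red and non angiogenic islets in blue, and with replicates 1 to 3 drawn as circles, the others as triangles. Angiogenic and non angiogenic arrays are separate on both axes in all 3 panels.

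Markers of exocrine tissue varied widely between arrays of the same group. The mean of 9 acinar markers was 7.59 to 10.42 in angiogenic and 7.48 to 11.34 in non angiogenic islets, and 0 of them passed in limma (0 also at an unadjusted p under 0.05 and by the methods' t-test). Its difference between the groups was 0.75 within replicates 1 to 3, against -0.14 within replicates 4 to 6. With this mean as a covariate in limma, the count of PDGF genes past the threshold was again 5 higher and 0 lower. Of 5 duct markers 0 passed in limma (0 also at an unadjusted p under 0.05 and by the methods' t-test), with means of 7.53 to 7.65 in angiogenic and 7.52 to 7.61 in non angiogenic islets. Of 13 endocrine markers 2 were lower in limma, against 0.948% of all genes, and 0 higher. The 2 lower genes were the somatostatin gene Sst at a difference of -0.74 and the glucagon gene Gcg at -0.26 (adjusted p = 8.27e-05 and 0.015 from limma). At an unadjusted p under 0.05, 5 were lower and 1 higher, against 6.59% and 7.76% of all genes. By the methods' t-test 2 were lower and 0 higher. With the array set as a block in limma 4 were lower, against 2.74% of all genes.

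For each of the 5 members past the test, the 5 genes with the most similar course over the 12 arrays were found by the root mean square difference of log2 levels after each gene had been centred on its own mean. That mean spans both groups, so the distance contains the difference between the groups by which the members were called. A gene near a member has a similar group difference, and need not vary with it within a group. For Pdgfrb these were Svep1, Col12a1, Loxl1, Rhoj and Col6a3, at distances from 0.10 to 0.13, against a spread of Pdgfrb about its own mean of 0.56. Col12a1 and Col6a3 encode collagens and Loxl1 a lysyl oxidase that acts on elastic fibres. For Pdgfra they were Actg2, Fndc1, Fbln2, Rai14 and Tns1, at 0.11 to 0.12 against a spread of 0.31. For Pdgfb they were Dlc1, Adgra2, Crispld2, Aoah and Dock1, at 0.08 against a spread of 0.22, and Adgra2 encodes a receptor of brain vessel growth.

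For Pdgfc the nearest genes were Msrb3, Eln, Heyl, Tnfaip2 and P2ry13, at 0.09 to 0.11 against a spread of 0.31, and Eln encodes elastin and Heyl a Notch target of vessel walls. For Pdgfd they were Aldh1a1, Cybb, Melk, Kif22 and Nckap1l, at 0.08 to 0.09 against a spread of 0.29. Of these, Cybb encodes a subunit of the phagocyte oxidase and Melk and Kif22 encode proteins of dividing cells, and Melk, Kif22 and Nckap1l did not pass the test between the groups (adjusted p = 0.072, 0.11 and 0.067 from limma). All 3 passed with the array set as a block (adjusted p = 0.00599, 0.00136 and 0.00294 in the same order, from limma) and with the replicate block (adjusted p = 0.011, 0.00925 and 0.0026). Besides the difference between the groups, the distance contains the offset between the 2 sets of arrays, which was largest for Pdgfd among the members.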

How the data were processed

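The authors deposited log2 levels per transcript cluster of 12 Affymetrix arrays, for which the submitters' processing notes name Affymetrix Expression Console and RMA. RMA brings arrays to a common distribution, so a change of total RNA cannot be seen and weak signals are compressed. The sources used here state neither their versions nor a joint normalization of the arrays. Clusters with 1 gene symbol in the platform annotation were kept (21789 of 35556, with 1621 of several symbols and 12146 unnamed), and the brightest by mean was taken for the 999 genes with several. Groups came from the sample titles. limma 3.58.1 in R 4.3.3 (lmFit and eBayes) compared 6 with 6 arrays with no covariate. Its two-sided p-values were adjusted by Benjamini-Hochberg over 19938 genes, with a threshold of 0.05, and the fit was tested on simulated data. The number of arrays limits the precision. The methods' t-test is the unpaired Student t-test, which the study's methods name beside the Mann Whitney U test for comparing 2 groups. The study chose its deregulated array genes with the BRB-ArrayTools software, which was not used here. Lists were described by counts, as were alternatives in limma, scaling, filter and samples. Members and lists were chosen with earlier results of these data known. Genes were named by rule, namely all members, up to 4 of each pathway list and 2 of each marker list by size of difference among those that passed (with the largest that did not where a pathway list had fewer), and the 5 genes nearest to each member that passed. Plau, St14, Furin, Pcsk5, Pcsk6, Nrp1, Kit, Kdr, Cbx7, Casp4, Casp12 and Pf4 were named after their values were seen. Listed genes that lack a cluster of their own name were not analysed here.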

Additional observations from a re-analysis of the deposited data

Results flagged for a closer look

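Over the 56 genes named, each group of 6 arrays was searched for an array far from the others, 112 groups in all. No PDGF gene had one. In non angiogenic islets, Tagln was highest in replicate 1, at 7.45 against 7.35 in the next array, and this gap was 0.684 of the range of the group. In non angiogenic islets, Svep1 was highest in replicate 6, at 7.87 against 7.60 in the next array, and this gap was 0.630 of the range. Chance gives such a gap in about 5% of groups.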

How the results depend on the processing

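Pdgfrb, Pdgfa and all counts of lower PDGF genes kept their side of the threshold in each of 24 alternatives. The count of higher PDGF genes was 5, and 2 without dim genes and 2 in replicates 1 to 3 alone, while leaving out 1 array gave 4 to 5. In replicates 1 to 3 alone the differences were 0.29 for Pdgfb, 0.32 for Pdgfc and 0.49 for Pdgfra, which did not pass, and in replicates 4 to 6 alone Pdgfrl, at -0.08 over all arrays, turned to 0.037. Pdgfd, at 0.45, did not pass by the methods' t-test, and ranged from 0.39 to 0.49 without 1 array. Extracellular regulators higher were 4, and 7 with array set as block and 7 with the replicate block, where 1 was lower. Signal transducers higher were 1, and 0 by the methods' t-test and 1 to 2 without 1 array (2 without non angiogenic replicate 1), and 1 was lower with array set as block. Class III receptors and ligands higher were 2, and 1 in each set alone and 1 to 3 without 1 array (1 without angiogenic replicate 2, 3, 4 or 5 or non angiogenic replicate 6). Of all genes, 708 were higher and 189 lower, with 1172 and 547 with the set as a block, 467 higher without dim genes, 449 lower with the replicate block, 66 lower in replicates 1 to 3 alone, and 553 to 715 higher and 110 to 178 lower without 1 array, the lowest of these without angiogenic replicate 6. Median centring and quantile normalization moved the median of all genes to -0.04 and -0.02. Of 1164 values of the 49 other named genes, 1090 kept direction and side of the threshold, 56 lost the call, 18 gained it and 0 turned sign. Same-numbered arrays of the 2 groups did not all deviate together (correlations from 0.03 to 0.54), so the replicate number was not taken as a pairing. With the replicate block the count of higher PDGF genes was 5 again. The acinar covariate was chosen after seeing the data. The causes of these changes were not tested. Pdgfc, Pdgfd and Pdgfra lie below the median gene level of 7.76. Signal over background was not part of the values used here.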

Other observations

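Platelets store PDGF. Of 5 platelet markers measured, 1 passed the test in limma as higher and 0 as lower, against 3.55% and 0.948% of all genes. At an unadjusted p under 0.05 the counts were 2 and 0, against 7.76% and 6.59% of all genes. By the methods' t-test after adjustment they were 0 and 0, against 2.94% and 0.903% of all genes. The mean of these markers was 6.80 to 6.89 in angiogenic and 6.63 to 6.88 in non angiogenic islets. The gene that passed was Ppbp, which encodes a platelet chemokine, at 1.38-fold (adjusted p = 0.032), a call lost in 7 of 12 fits without 1 array, those without angiogenic replicate 2, 4, 5 or 6 or non angiogenic replicate 1, 2 or 3 (adjusted p up to 0.08 from limma). Pf4, the gene of platelet factor 4, had a difference of 0.16 (adjusted p = 0.16 from limma). Of 5 Schwann cell markers 0 passed in limma (0 also at an unadjusted p under 0.05 and by the methods' t-test), with means of 6.74 to 6.91 in angiogenic and 6.73 to 6.92 in non angiogenic islets.

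In the RefSeq annotation of GRCm38.p6, the PDGF receptor genes lie beside related receptor genes. Pdgfra is followed by Kit and then Kdr on chromosome 5, and Pdgfrb by Csf1r on chromosome 18. The differences along the first row were 0.56 for Pdgfra, 0.10 for Kit (adjusted p = 0.58) and 0.30 for Kdr, the VEGF receptor 2 gene (adjusted p = 0.032), and along the second 1.08 for Pdgfrb and 0.56 for Csf1r (adjusted p = 4.06e-05), all from limma. The 2 protein-coding genes on each side of every PDGF gene make 28 genes, of which 25 were measured. In limma 3 of these were higher (Kdr, Csf1r and Casp4), 1 was lower (Cbx7) and 21 did not pass. Of all genes, 3.55% were higher and 0.948% lower. Kdr is also among the endothelial markers and Csf1r among the macrophage markers. Cbx7, beside Pdgfb, had a difference of -0.26 (adjusted p = 0.018 from limma). Casp4, the second gene before Pdgfd, had a difference of 0.38 (adjusted p = 0.019 from limma). Casp12, directly before Pdgfd, differed by 0.50, with an adjusted p of 0.22, and passed with the array set as a block (adjusted p = 0.00226) and with the replicate block (adjusted p = 5.18e-04), all from limma.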
